A study of Danio rerio with 94 samples.

Results

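Cyclin B1 and cyclin B2 are the regulatory subunits that switch on the kinase Cdk1 at the entry into mitosis. Both proteins accumulate as a dividing cell passes through G2, are held inactive with Cdk1 by inhibitory phosphorylation until Cdc25 phosphatases remove it, and are destroyed by the anaphase-promoting complex so that the cell can leave mitosis. In mammals cyclin B1 moves into the nucleus and is needed for division of the early embryo, whereas cyclin B2 sits mostly at the Golgi and membranes. In a zebrafish embryo at the stage studied, dividing cells lie among many that have left the cycle, and the transcripts of both genes are measured over the whole animal.

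The genes described here are CCNB1 (zebrafish ccnb1, ENSDARG00000051923) and CCNB2 (zebrafish ccnb2, ENSDARG00000036180), 2 of the 3068 genes measured. They were selected on measured values, because their levels differed from the control in opposite directions in embryos exposed to 1,7-dimethylnaphthalene. For these 2 genes that contrast is therefore given below as a description with no test, and their tests concern the 21 other chemicals. Those 21 comparisons share the same 5 control pools with each other and with the comparison that chose the genes. Control pools high for CCNB1 or low for CCNB2 would favour both the choice and these comparisons. A small p against the control, or a share above that of all genes, is therefore a description and not a result.

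Embryos of the tropical 5D zebrafish line, labelled 5D WT, were exposed in sealed vials to 20 μM of naphthalene or of an alkyl-substituted naphthalene between 6 and 24 hpf. At 48 hpf, RNA was extracted from whole embryos of normal appearance, with 6 embryos to a pool. The 22 chemicals were naphthalene, 1-methyl-, 1-ethyl-, 2-ethyl-, 2-isopropyl- and 2-butylnaphthalene, 1,2-, 1,3-, 1,4-, 1,5-, 1,6-, 1,7-, 1,8-, 2,3- and 2,7-dimethylnaphthalene, the 1,4,5-, 1,6,7- and 2,4,5-trimethyl isomers of naphthalene, its 1,4,6,7-tetramethyl derivative, 2,6-diethylnaphthalene, 2,6-diisopropylnaphthalene and 2,7-di-tert-butylnaphthalene. A chemical had 4 pools, and the exposures ran on 2 days with 11 chemicals each. The controls received the DMSO vehicle that all groups shared, with 2 pools from day 1 and 3 from day 2. The paper states that embryos were pooled by vial, but it counts more pools per treatment than vials left for RNA. Separate vials are therefore not certain for each pool. The pools with the highest RNA concentration and the steadiest readings were the ones measured. A chemical was exposed on a single day, so the p-values reflect the spread between pools and not between repeated experiments. Because only embryos of normal appearance were taken, embryos that died or were malformed are not represented.

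Expression was measured with TempO-Seq, which ligates a pair of short detector oligos on each target transcript and counts the ligated product by sequencing. The values are CPM, the counts of a gene scaled to a fixed library total, on a log2 scale. A pool held 7.21 to 16.5 M reads (median 10.3 M) after the correction for exposure day, and a single read was worth 0.0696 to 0.148 CPM. Because oligos differ in how well they ligate, the levels of the 2 genes were not compared with each other. Across the 93 pools CCNB1 had 173 to 922 reads (median 497) and CCNB2 had 1 to 144 reads (median 45). CCNB2 had at most 10 reads in 13 pools, and its relative counting error was larger than that of CCNB1. In RNA from whole embryos, fewer dividing cells and less transcript per cell cannot be told apart.

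CCNB1, the cyclin that partners Cdk1 in the nucleus, was at 5.93 and 5.68 log2 CPM in control pools A and C of day 1 and at 5.91, 5.92 and 5.70 in control pools A, B and C of day 2. The control mean was 5.83 ± 0.13 (SD, n = 5), or 56.8 CPM, and the means of the control days differed by 0.038 (day 2 minus day 1). In 1,7-dimethylnaphthalene the 4 pools were at 4.23, 4.43, 4.86 and 4.75, with 173, 274, 368 and 287 reads. All of them lay below the lowest control pool, and their mean of 4.57 ± 0.29 (SD, n = 4), or 23.9 CPM, was the lowest of the 23 groups. The difference from the control was -1.26 (standard error 0.17), a level 2.40-fold lower. In this comparison 0.815% of all genes were lower by the criteria used throughout, an adjusted p of at most 0.05 and a log2 difference of at least 1. CCNB1 was one of them by the choice of genes, so nothing was read from that share.

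CCNB2, the cyclin of the Golgi and membranes in mammals, was at -1.69 and 0.26 log2 CPM in control pools A and C of day 1 and at 1.08, 0.88 and 0.88 in the day 2 control pools. Those values rested on 1, 9, 20, 14 and 20 reads, and their mean was 0.28 ± 1.14 (SD, n = 5), with a spread well above that of CCNB1. The 4 pools of 1,7-dimethylnaphthalene were at 3.41, 3.52, 1.63 and 2.67, with 97, 144, 37 and 66 reads. All of them lay above the highest control pool. Their mean was 2.80 ± 0.87 (SD, n = 4), a difference of 2.52 (standard error 0.81) from the control, or 5.74-fold on the log2 CPM scale. Without control pool A of day 1, which held 1 read, the difference was 2.03. It was 1.86 against the controls of the same day and 1.88 with 1 CPM added before the logarithm. In this comparison 0.522% of all genes were higher by the same criteria, a share from which again nothing was read.

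The pools of 1,7-dimethylnaphthalene were also among the deeper ones. They held 11.1 to 14.0 M reads against 8.14 to 12.7 M in the controls, and 293 to 363 genes had no reads against 362 to 457 in the controls. Genes without reads differed by exposure day, with 383 to 541 in exposed pools of day 1 and 293 to 412 in those of day 2. 1,7-Dimethylnaphthalene was exposed on day 2, whose control pools had 379, 381 and 362. The part of depth in the 2 differences was not tested. Summed markers of neural progenitors (4 of 10 listed genes measured), cells that still divide at this stage, were at 788 to 1304 CPM in 1,7-dimethylnaphthalene and at 1108 to 1297 CPM in the controls, and those of skeletal muscle (2 of 13 measured) were at 7467 to 9747 CPM and 8138 to 13983 CPM. The marker genes of the germ line, ddx4 and dazl, stayed at 1.21 to 6.88 CPM in those pools and at 1.44 to 7.17 CPM in the controls. Summed neuron markers (3 of 9 measured) were at 334 to 446 CPM against 410 to 512 in the controls. Those of erythrocytes (3 of 7) were at 106 to 286 against 180 to 378. Liver markers (6 of 7) were at 6173 to 9579 against 4973 to 7538. For the heart, gata4 alone was at 0.782 to 6.06 against 0 to 4.38. No measured marker of any of the 7 lists was called in 1,7-dimethylnaphthalene, where 1.34% of all genes were. With so few measured markers, an absence of calls says little about cell composition.

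**Figure D1:**
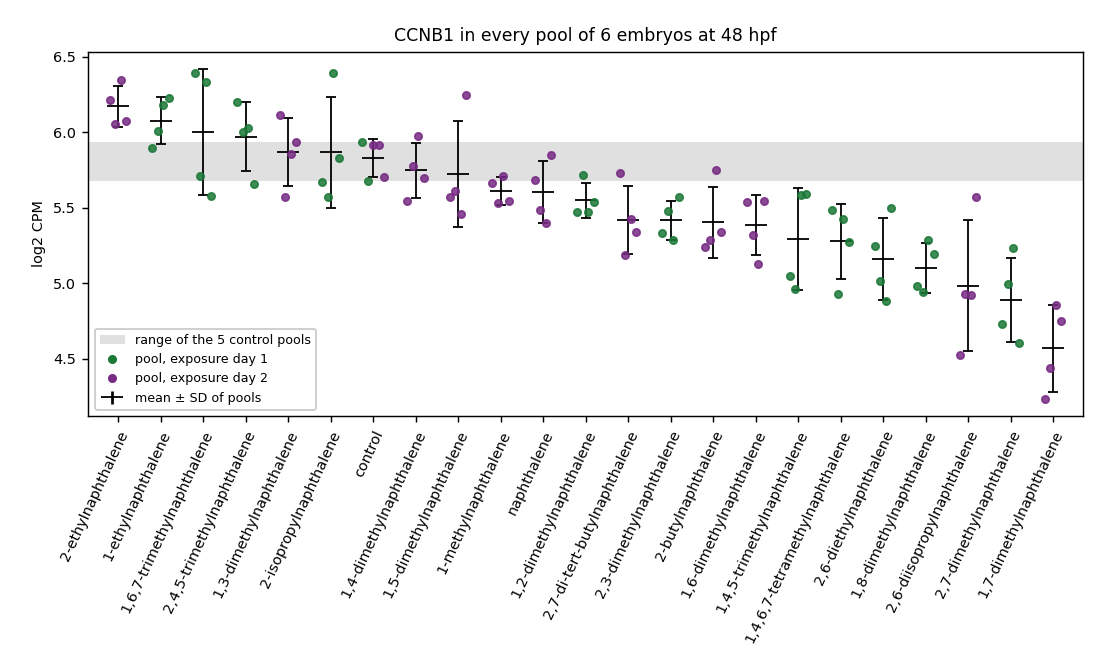
CCNB1 in log2 CPM (vertical axis) for every pool of 6 embryos in 23 exposure groups ordered by mean (horizontal axis). Points are pools coloured by exposure day, bars are the mean ± SD, and the grey band is the range of the 5 control pools. The lowest group mean is that of 1,7-dimethylnaphthalene (4.57) and the highest that of 2-ethylnaphthalene (6.17), and some pools of other groups overlap theirs.

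CCNB1 levels spread over the 23 groups from 4.57 to 6.17 log2 CPM, in a graded order in which the control was the seventh highest. Each group overlapped its neighbour in the order in all 22 neighbouring pairs. The gap between neighbours was smaller than their pooled SD in 21 of those pairs, and the exception was the gap of 0.32 between 2,7-dimethylnaphthalene and 1,7-dimethylnaphthalene, against a pooled SD of 0.28. The highest means were those of the ethylnaphthalenes. The 4 pools of 2-ethylnaphthalene were at 6.21, 6.06, 6.35 and 6.07, all above the highest control pool. Those of 1-ethylnaphthalene were at 5.89, 6.01, 6.18 and 6.23, of which 3 were above it.

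At the low end of the 21 other chemicals stood 2,7-dimethylnaphthalene, with CCNB1 at 4.73, 4.99, 5.23 and 4.60 log2 CPM. In 2,6-diisopropylnaphthalene the pools were at 4.52, 4.92, 4.92 and 5.57, so that 1 pool came close to the lowest control pool and 3 lay well below it. For 1,8-dimethylnaphthalene they were at 4.98, 4.94, 5.29 and 5.19, and these 4 values were close together. In 2,6-diethylnaphthalene they were at 5.25, 5.01, 4.88 and 5.50. In all 4 of these chemicals each pool was below each control pool.

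Against the control, CCNB1 was lower in these 4 chemicals when no minimum fold was asked. The difference was -0.94 in 2,7-dimethylnaphthalene (1.92-fold, adjusted p = 0.000581 by limma with Benjamini-Hochberg adjustment over all genes, standard error 0.17 here and for each chemical). It was -0.84 in 2,6-diisopropylnaphthalene (1.80-fold, adjusted p = 0.00459). In 1,8-dimethylnaphthalene it was -0.73 (1.65-fold, adjusted p = 0.0161), and in 2,6-diethylnaphthalene it was -0.67 (1.59-fold, adjusted p = 0.0291). The choice of CCNB1 also used these control pools, which could favour low values here. These 4 p-values and the share beside that of all genes are therefore only descriptions. Over all genes and the 21 chemicals, 0.582% of the comparisons were lower with such an adjusted p, against these 4 of 21 for CCNB1. None reached the fold criterion, so CCNB1 was called in 0 of 21 chemicals by limma, where 0.141% of all comparisons were called lower, and voom on the recovered reads also gave 0. At an unadjusted p under 0.05, CCNB1 was lower in 10 of the 21 chemicals and higher in 1, 2-ethylnaphthalene, at 0.34 above the control (unadjusted p = 0.0492 and adjusted p = 0.501 by limma). The background of such unadjusted results was 6.41% for lower and 4.62% for higher values.

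How many chemicals passed depended on the control pools and on whether all groups shared 1 spread in the fit. Against the controls of the same day, CCNB1 passed at any fold in 2 chemicals, 2,7-dimethylnaphthalene (-0.92, adjusted p = 0.0214) and 2,6-diisopropylnaphthalene (-0.86, adjusted p = 0.0325), and without control pool A of day 1 the same 2 passed (adjusted p = 0.00289 and 0.0164). When each chemical was fitted alone with the controls, 0 passed and the smallest adjusted p was 0.0510, in 2,7-dimethylnaphthalene. Leaving out pool D of 2,7-dimethylnaphthalene or pool E of 2,6-diisopropylnaphthalene, the highest of each, took the difference of that chemical past the fold criterion, to -1.05 and -1.04. Without the lowest of each, pool E of 2,7-dimethylnaphthalene or pool B of 2,6-diisopropylnaphthalene, the difference shrank to -0.84 and -0.69.

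The mean of CCNB1 was below the control in 15 of the 21 chemicals and above it in 6, with a median difference of -0.28. Of the 84 pools of these chemicals, 55 were below the lowest control pool and 16 above the highest. All 4 pools were below the lowest control pool in 8 of the 21 chemicals, the 4 named above with 1,6-dimethylnaphthalene, 2,3-dimethylnaphthalene, the 1,4,5-trimethyl isomer and the 1,4,6,7-tetramethyl derivative. Among all genes 2.23% of the comparisons with these chemicals had that placement. Within day 1, 31 of 44 pools lay below both control pools of that day, and within day 2, 26 of 40 lay below all 3. All these placements rest on the few control pools that also entered the choice of CCNB1. Shares over all genes were not computed for the counts of pools.

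1,7-Dimethylnaphthalene had less CCNB1 than each of the 21 other chemicals, by 0.32 to 1.60 on the log2 scale. Its pools did not overlap those of 19 of them. These differences and the lack of overlap are descriptions, since the gene was chosen for its low level in this chemical. The share of all genes set apart in this way was not computed.

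Among the 21 chemicals alone, with neither 1,7-dimethylnaphthalene nor the controls in the contrast, CCNB1 differed strongly. The F test of limma gave F = 8.12 with an adjusted p of 2.13e-08, the second smallest p of 3068 genes. The spread in this test came from the fit of all pools, including those that chose CCNB1. The rank is therefore not wholly free of that choice. An adjusted p of at most 0.05 was found for 4.04% of all genes. Differences between these chemicals accounted for 71.9% of the variance of CCNB1 over their 84 pools, against a median of 27.1% over all genes, and the SD between pools within a chemical was 0.26, against a median of 0.50. The values had been corrected for exposure day, so they cannot show whether day entered the order. Differences were present within each day. The means ran from 4.89 to 6.08 over the 11 chemicals of day 1 and from 4.98 to 6.17 over the 10 of day 2. The F tests of limma within each day were fitted without 1,7-dimethylnaphthalene and the controls. They gave adjusted p values of 0.000186 and 0.0125.

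**Figure D2:**
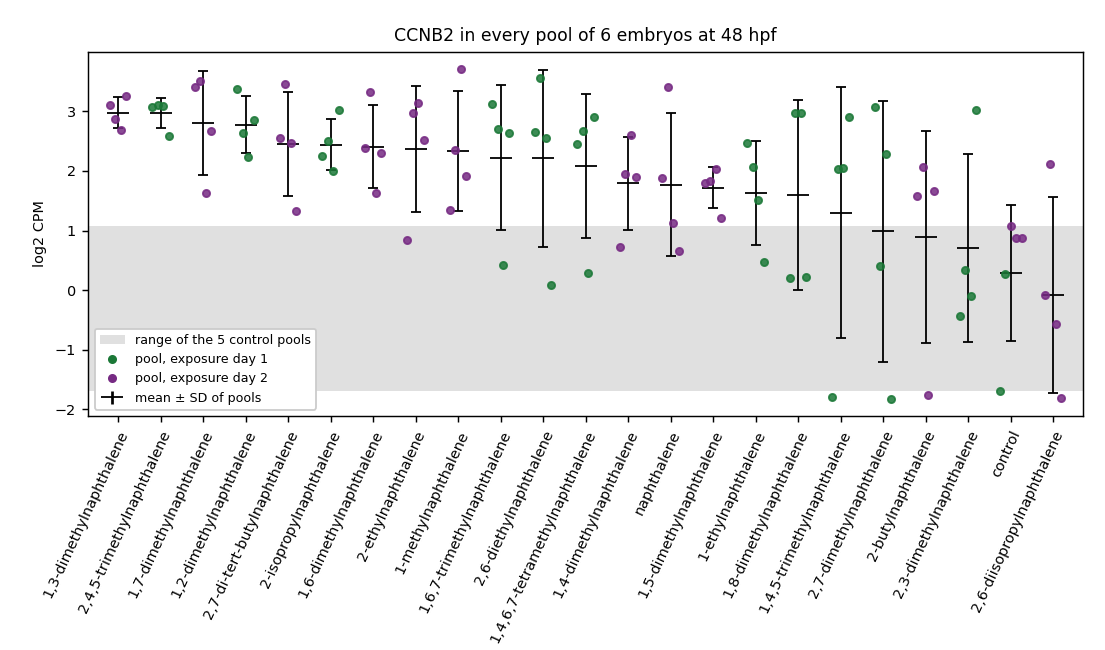
CCNB2 in log2 CPM (vertical axis) for every pool in 23 exposure groups ordered by mean (horizontal axis), drawn as for CCNB1. The control mean of 0.28 is the second lowest, and single pools at about 1 read, near -1.8, stretch the SD of several groups.

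CCNB2 was arranged differently. Its control mean was the second lowest of the 23 groups, and 20 of the 21 other chemicals had a higher mean, with a median difference of 1.80. Of their 84 pools, 65 lay above the highest control pool and 4 below the lowest. For comparison, 98 of the 3068 genes (3.19%) had a control mean below all 22 chemicals and 183 (5.96%) had one above all 22, while CCNB2 was in neither class. Within day 2, 33 of 40 pools were above the 3 control pools of that day, which spanned 0.88 to 1.08. Within day 1, 37 of 44 were above both control pools, which held only 1 and 9 reads. All these counts rest on the few control pools that also entered the choice of CCNB2. Shares over all genes were not computed for the counts of pools.

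The highest mean was that of 1,3-dimethylnaphthalene, where CCNB2 was at 3.11, 2.87, 2.68 and 3.26 log2 CPM with 71, 73, 61 and 93 reads. In the 2,4,5-trimethyl isomer the pools were at 3.08, 3.12, 3.09 and 2.59, and in 1,2-dimethylnaphthalene at 3.37, 2.64, 2.23 and 2.86. These 3 chemicals and 1,7-dimethylnaphthalene, whose mean was the third highest, had all their pools above the control range, and the first 2 also had the smallest SD of any group, 0.25 each. Such a placement above all controls was found in 8 of the 21 chemicals, against 1.55% of the comparisons over all genes. The control pools also entered the choice of CCNB2, so this excess is only a description.

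No chemical passed the test, however. The differences from the control were 2.70 in 1,3-dimethylnaphthalene (standard error 0.81, adjusted p = 0.0625 by limma) and 2.69 in the 2,4,5-trimethyl isomer (adjusted p = 0.0881). The third was 1,2-dimethylnaphthalene, 5.64-fold above the control on the log2 CPM scale (adjusted p = 0.0945). CCNB2 was thus called in 0 of 21 chemicals by limma and by voom, where 0.135% of all comparisons were called higher. An unadjusted p under 0.05 by limma was reached in 11, all with higher values, where 4.62% of all comparisons were higher at that p. The same control pools enter all of these comparisons and the choice of CCNB2, so this share is only a description. The 95% intervals were wide, 1.09 to 4.31 for 1,3-dimethylnaphthalene, and differences of a few fold could not be told from the spread of the pools.

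The result for 1,3-dimethylnaphthalene lay near the threshold. It passed with 1 CPM added before the logarithm (2.02, adjusted p = 0.0427) and with the pool letter as a block (2.88, adjusted p = 0.0376), so that the count of called chemicals was 1. The count was also 1 without pool A of the 1,4,5-trimethyl isomer, pool C of 2-butylnaphthalene or pool E of 2,7-dimethylnaphthalene, each of which held 1 read of CCNB2. Without control pool A of day 1 the difference in 1,3-dimethylnaphthalene was 2.21 (adjusted p = 0.224), and against the day 2 controls it was 2.04 (adjusted p = 0.361). Against the day 1 controls, which were lower, the difference was 3.68 in the 2,4,5-trimethyl isomer (adjusted p = 0.0832) and 3.49 in 1,2-dimethylnaphthalene (adjusted p = 0.0626). Without that control pool, and against same-day controls, 19 of the 21 chemicals were above the control.

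At the low end, 2,6-diisopropylnaphthalene had the lowest CCNB2 mean, -0.09 ± 1.65 (SD, n = 4), with pools at -0.09, 2.12, -0.57 and -1.82. The control pools of day 1 averaged -0.71 and those of day 2 averaged 0.94, a gap of 1.66 between days within the control. Among the chemicals the median of means was 2.08 on day 1 and 2.06 on day 2. All these values follow the correction for exposure day, so neither comparison shows the size of a day effect. In the order of means, the gap between neighbours was smaller than their pooled SD in all 22 neighbouring pairs. Among the 21 chemicals CCNB2 did not pass the F test of limma (F = 1.71, adjusted p = 0.274), and 34.0% of its variance lay between chemicals. The SD between pools within a chemical was 1.24.

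**Figure D3:**
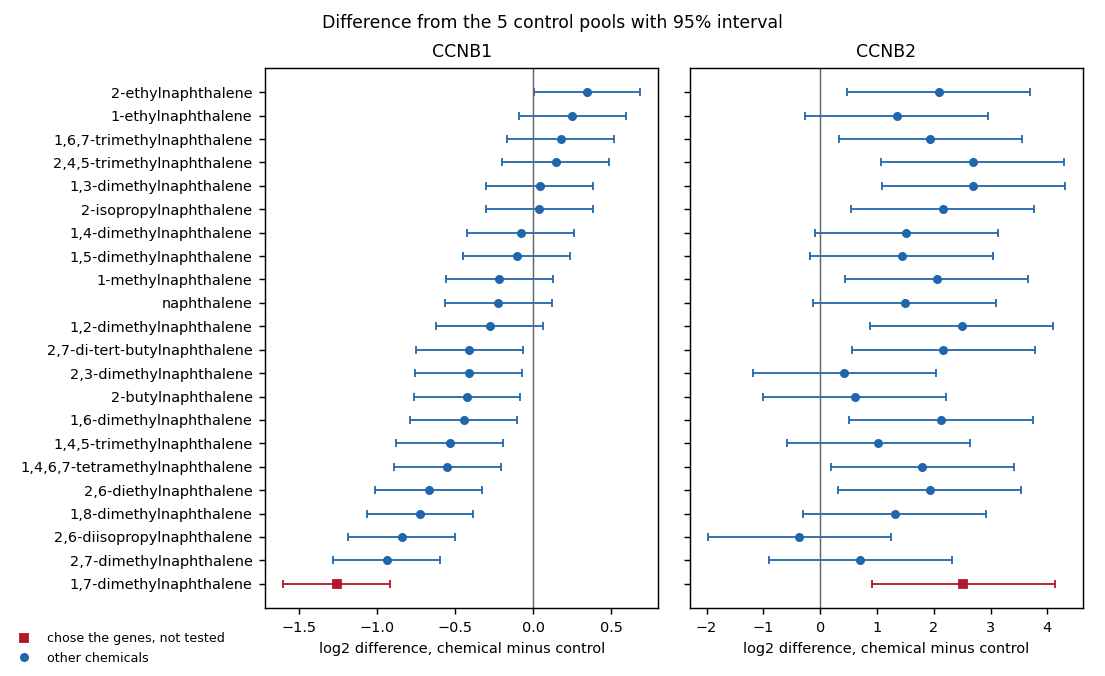
Log2 difference from the 5 control pools (horizontal axis) with its 95% interval for CCNB1 and CCNB2 in 22 chemicals (vertical axis, ordered by CCNB1). Red squares mark 1,7-dimethylnaphthalene, in which the genes were chosen. CCNB1 runs from -1.26 to 0.34, whereas CCNB2 is above 0 in all chemicals but 2,6-diisopropylnaphthalene, with intervals several times wider.

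CCNB2 was then read in the 4 chemicals in which CCNB1 was lower at any fold. Its differences from the control were 0.70 in 2,7-dimethylnaphthalene, -0.37 in 2,6-diisopropylnaphthalene, 1.31 in 1,8-dimethylnaphthalene and 1.93 in 2,6-diethylnaphthalene. Each difference had a standard error of 0.81 and an adjusted p of 0.223 or more by limma. Against the controls of the same day they were, in the same order, 1.70, -1.03, 2.31 and 2.92. Whether the opposite directions seen in 1,7-dimethylnaphthalene hold in these chemicals cannot be read from errors of that size. In 2,7-dimethylnaphthalene CCNB2 ranged from 1 to 74 reads over 4 pools, and in 1,8-dimethylnaphthalene a pair of pools at 10 reads each stood beside pools at 79 and 89. Over the 23 group means Pearson's r between the genes was 0.24, and over the 93 pools it was 0.07. Within groups it was -0.14. These values are descriptions over pools that share groups and libraries, and in genes with few reads a weak correlation is no finding.

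**Figure D4:**
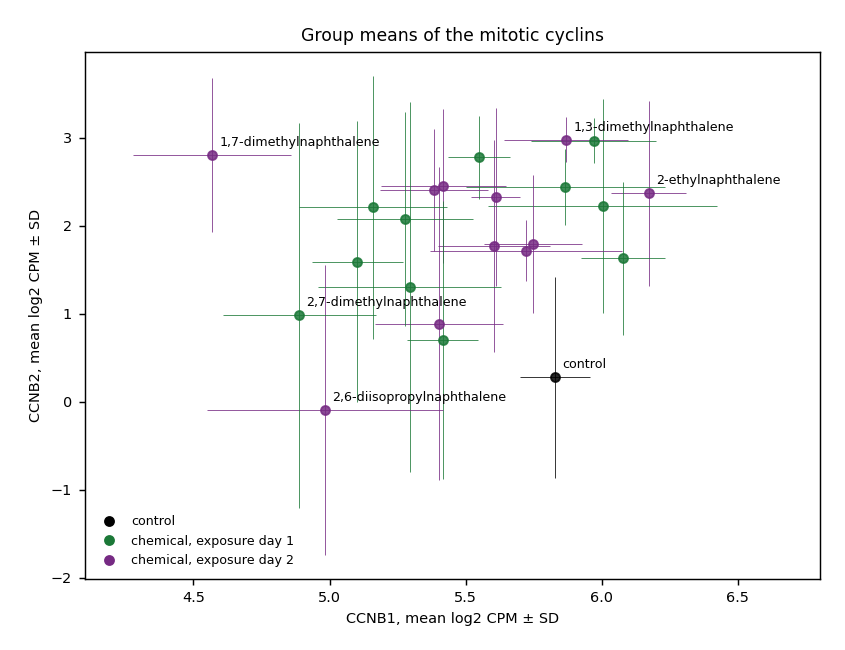
Mean CCNB1 (horizontal axis) and mean CCNB2 (vertical axis) of the 23 groups in log2 CPM, with SD bars, coloured by exposure day. The control lies at 5.83 and 0.28, and 1,7-dimethylnaphthalene at 4.57 and 2.80, at the upper left. That place follows from the choice of the genes in this chemical. Its CCNB2 pools overlap those of each of the 21 other chemicals.

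Chemicals that differ by a named change in structure were compared directly in 15 pairs, each within an exposure day and at the same concentration and time. For CCNB1, 7 of 15 pairs differed when p was adjusted over the 15 pairs (1.11% of pairs over all genes), and 1 of 15 when it was adjusted over all genes (0.0239% of pairs over all genes were lower in the first chemical by that test and 0.0261% higher). 1,7-Dimethylnaphthalene was left out of these pairs. The pairs were chosen with earlier results of these data known, and several share a chemical. The 7 passing pairs are therefore not independent, and their share beside that of all genes is a description.

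The pair that passed both was 2-butylnaphthalene and 2-ethylnaphthalene, which differ in the length of a chain at the same position. CCNB1 was at 5.24, 5.28, 5.75 and 5.34 log2 CPM with the butyl chain and, as given above, at 6.06 to 6.35 with the ethyl chain. The difference was -0.77 (standard error 0.18, adjusted p = 0.0219 over all genes and 0.000962 over the pairs by limma). 2-Ethylnaphthalene was in turn higher than naphthalene, where the pools were at 5.68, 5.48, 5.40 and 5.85, by 0.57 (adjusted p = 0.275 over all genes and 0.00921 over the pairs).

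In 3 further pairs, which differ by an added or a moved methyl group, the first chemical had the lower level. For a moved group the sign depends only on which chemical is put first. An added methyl group did not go with a lower level in the other pairs. There the differences were 0.0073 to 0.26, and the intervals held 0. CCNB1 was at 5.48, 4.93, 5.43 and 5.27 in the 1,4,6,7-tetramethyl derivative and at 6.39, 5.71, 6.33 and 5.57 in the 1,6,7-trimethyl isomer, which lacks the methyl group at position 4. The pools did not overlap, and the difference was -0.73 (adjusted p = 0.113 over all genes and 0.00110 over the pairs by limma). In the 1,4,5-trimethyl isomer CCNB1 was at 5.05, 4.96, 5.58 and 5.59, and in the 2,4,5-trimethyl isomer, with a methyl group at position 2 in place of 1, at 6.20, 6.00, 6.03 and 5.65. Here the difference was -0.68 (adjusted p = 0.143 over all genes and 0.00186 over the pairs by limma). Moving a methyl group from position 3 to 7 went with a difference of -0.53 between 2,7-dimethylnaphthalene and 2,3-dimethylnaphthalene (adjusted p = 0.410 over all genes and 0.0144 over the pairs by limma).

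The remaining 2 of the 7 pairs were less firm. 1,2-Dimethylnaphthalene was above 1,8-dimethylnaphthalene by 0.45 (adjusted p = 0.0403 over the pairs by limma), and 2,7-di-tert-butylnaphthalene was above 2,6-diisopropylnaphthalene by 0.43 (adjusted p = 0.0409). With voom these were at adjusted p = 0.0560 and 0.0841. The first pair also lost its call without pool C or E of 1,2-dimethylnaphthalene or pool A or B of 1,8-dimethylnaphthalene (0.39 to 0.45). The second lost it without pool B, C or D of 2,6-diisopropylnaphthalene or pool A or C of 2,7-di-tert-butylnaphthalene (0.28 to 0.43). The pair of 2,7- and 2,3-dimethylnaphthalene lost it without pool E of 2,7-dimethylnaphthalene (-0.43, adjusted p = 0.0642).

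In the other 8 pairs the interval of the CCNB1 difference held 0. 1-Methylnaphthalene differed from naphthalene by 0.0073 (95% interval -0.35 to 0.37), and 1,5-dimethylnaphthalene from 1,4-dimethylnaphthalene by -0.025 (95% interval -0.39 to 0.34). The intervals of the 8 pairs reached from -0.70, for 1,6-dimethylnaphthalene against 1,5-dimethylnaphthalene, to 0.62, for 1,3-dimethylnaphthalene against 1-methylnaphthalene. In 12 of the 15 pairs the interval excluded a difference of 1.

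For CCNB2 0 of 15 pairs passed by limma under either adjustment, and 2 had an unadjusted p under 0.05. In 2,7-di-tert-butylnaphthalene the pools were at 2.56, 3.45, 2.48 and 1.32 log2 CPM, above 2,6-diisopropylnaphthalene by 2.54 (95% interval 0.84 to 4.24, adjusted p = 0.0590 over the pairs by limma). 1,2-Dimethylnaphthalene was above 2,3-dimethylnaphthalene, whose pools were at -0.43, 0.34, -0.10 and 3.03, by 2.07 (95% interval 0.37 to 3.77, adjusted p = 0.133). The first passed over the pairs without pool C of 2,6-diisopropylnaphthalene (adjusted p = 0.00746) or pool E of 2,7-di-tert-butylnaphthalene (adjusted p = 0.0337), and the second without pool E of 2,3-dimethylnaphthalene (adjusted p = 0.0231). With pool E of 2,3-dimethylnaphthalene left out, 2 pairs passed. One pair passed without any single one of 6 other pools, which were pool A of the 1,4,5-trimethyl isomer, pool C of 2-butylnaphthalene, pools B and E of 2,7-dimethylnaphthalene and the 2 just named. No interval excluded a difference of 1.

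**Figure D5:**
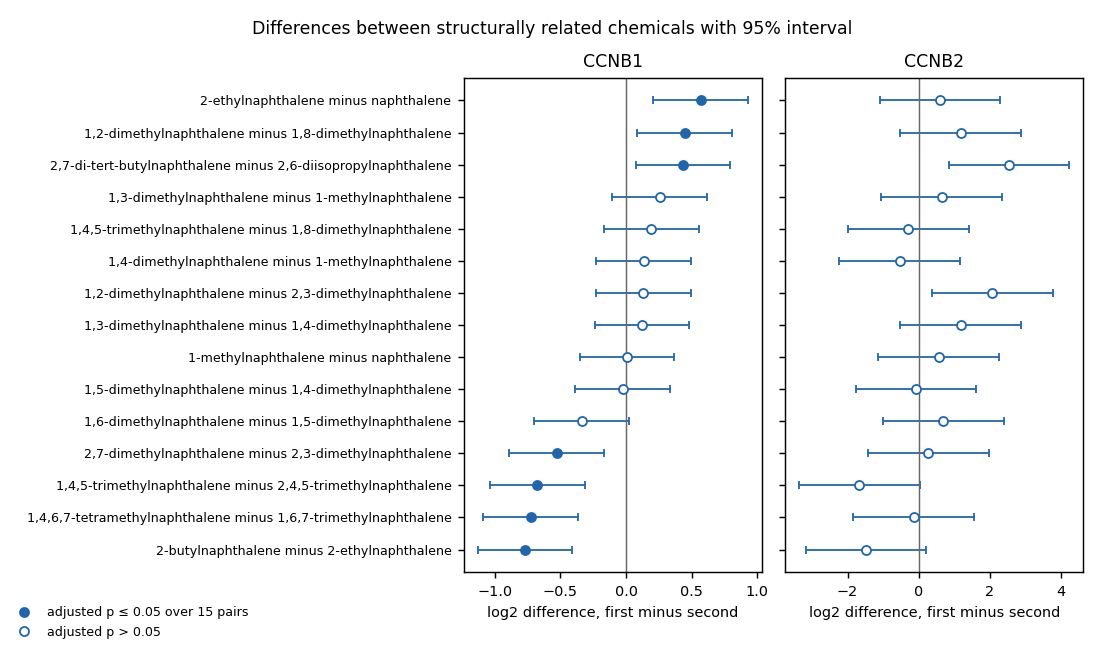
Log2 difference between the chemicals of 15 structure pairs (horizontal axis, first minus second) with its 95% interval for CCNB1 and CCNB2 (vertical axis, pairs ordered by CCNB1). Filled points have an adjusted p of at most 0.05 over the 15 pairs. There are 7 for CCNB1, from -0.77 to 0.57, and 0 for CCNB2.

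Calls among the other genes of the cell cycle were counted beside the share of all genes. Of 121 measured genes in 7 lists (cyclins and their kinases, the Cdk1 switch, the anaphase-promoting complex and spindle checkpoint, mitotic kinases with spindle and chromosome condensation, G2/M and E2F transcription, DNA replication, and checkpoints with CDK inhibitors), leaving out CCNB1 and CCNB2, 0 were called in 1,7-dimethylnaphthalene, where 1.34% of all genes were. Over the 21 other chemicals, 9 comparisons of these genes were called higher and 1 lower (0.394%, against 0.276% of all comparisons). The 9 were all of CHEK2, a kinase of the DNA damage checkpoint, with differences of 1.12 to 1.55 from a control mean of 3.25. The lower one was GADD45BB, a stress-induced gene of the Gadd45 family, in the 2,4,5-trimethyl isomer (-1.85, adjusted p = 0.0107 by limma). Calls in these lists other than those 10 were 0. Without a minimum fold, CKS1B of the Cdk1 switch list passed in 1,7-dimethylnaphthalene (difference 0.51, adjusted p = 0.0114 by limma). How many genes of the lists, or of all genes, passed there without a fold was not counted.

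CDK1, the kinase that both cyclins activate, was at 5.31 log2 CPM in the controls and 5.82 in 1,7-dimethylnaphthalene. The difference of 0.50 (standard error 0.23) was opposite in sign to that of CCNB1 but did not pass (adjusted p = 0.196 by limma). In the 21 other chemicals CDK1 differed from the control by -0.14 to 0.67 and was called in 0 by limma (smallest adjusted p = 0.110). CCNA2, the cyclin that acts with Cdk2 and Cdk1 from S phase to early mitosis, was at 3.05 in the controls and 3.77 in 1,7-dimethylnaphthalene (difference 0.72, standard error 0.57) and was likewise called in 0 of 21 (smallest adjusted p = 0.412). CCNB3, the remaining B-type cyclin, was not among the measured genes. Median differences of the lists over the 21 chemicals lay between -0.14 and 0.11, beside -0.0087 for all genes. In 1,7-dimethylnaphthalene, where the median of all genes was 0, they were 0.40 for the Cdk1 switch (4 of 6 genes above the control) and 0.34 for cyclins and their kinases (11 of 14). They were 0.26 for the anaphase-promoting complex and spindle checkpoint (8 of 12) and 0.22 for DNA replication (22 of 32). For mitotic kinases with spindle and chromosome condensation the median was 0.11 (20 of 36), and for G2/M and E2F transcription 0.0086 (4 of 8). The lowest was -0.18 for checkpoints and CDK inhibitors (5 of 16).

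The genes whose pattern over the 93 pools was most like that of CCNB1, among 1830 genes with a mean of at least 3 log2 CPM, were MFAP2, a microfibril protein (Pearson's r = 0.66), PABPN1, a nuclear poly(A)-binding protein (0.58), NNT, a mitochondrial transhydrogenase (0.56), PRKACAB, a catalytic subunit of protein kinase A (0.55), and NID2A, a basement membrane nidogen (0.54). Among the lowest were RPL32, a ribosomal protein (-0.51), and CDKN1CA, a CDK inhibitor (-0.51). Over the 23 group means r was 0.74 to 0.86 for these 5 genes. Within groups it was 0.39 for PABPN1, 0.25 for PRKACAB, 0.21 for NID2A, 0.14 for MFAP2 and -0.0054 for NNT. CDK1 had an r of -0.24 with CCNB1, and CCNA2 one of -0.23.

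For CCNB2 the likeness was weaker. The highest r values were those of APOA1A, an apolipoprotein (0.36), NCK2B, an adaptor protein (0.34), EGFRA, a growth factor receptor (0.33), ABCG2C, a transporter (0.32), and NUCB2A, a nucleobindin (0.31). The lowest were those of PTPRFB, a receptor phosphatase (-0.33), KLF11A, a Kruppel-like transcription factor (-0.31), and BOD1, a chromosome biorientation protein (-0.29). Correlations with total reads were -0.15 for CCNB1 and 0.035 for CCNB2. All of these are descriptions over pools that share groups, with no test.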

How the data were processed

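The authors obtained gene counts from the TempO-Seq reads with TempO-SeqR (genome build GRCz11 per the labels), summed the probes of a gene, removed a day 1 control pool as an outlier, used ComBat_seq to take out the effect of exposure day, and applied upper-quartile normalization. The deposited values are log2 CPM, and correspond to a prior count of 2. The authors also deposited a table of their own comparisons (log2 fold changes, p-values, adjusted p-values and score columns), which was not used. CCNB1 and CCNB2, the gene lists and the pairs were chosen with earlier results of these data known.

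From the log2 values, whole reads were recovered for 100% of values (tolerance 0.02 reads). These reads follow the day correction, and intervals from them would cover counting error only. Replicates differed by more than counting error. limma 3.58.1 in R 4.3.3 was fitted to the log2 values of 93 pools in 23 groups, with no covariate, no filter and no added pseudocount. P-values were moderated and adjusted by Benjamini-Hochberg over the 3068 genes of a comparison, and for pairs also over the 15 pairs. On simulated counts for 2-butylnaphthalene against control, 35 of 100 genes changed 2-fold and 98 of 100 changed 4-fold were called among 3068 genes. In that comparison 10 unchanged genes were called as well. The changed genes were drawn from those with a mean above 3 log2 CPM, so these rates do not cover CCNB2. Named genes were the 2 cyclins, CDK1, CCNA2 and CCNB3, genes of the lists called in any chemical, and the 5 most and 3 least correlated genes with a mean of at least 3 log2 CPM, of which 1 is not reported here. Alternatives were voom, separate fits, same-day controls, an intensity trend, 1 CPM added, a filter of 1 CPM in 4 pools, median centring, the pool letter as a block, each day alone for the F tests, and each pool left out. Sequences and coordinates are not given.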

Additional observations from a re-analysis of the deposited data

Results flagged for a closer look

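In 2 of 46 groups, counting CCNB1 and CCNB2 in 23 groups each, a single pool stood apart from the others by Dixon's criterion at the 95% level, where chance gives about 2.3. Both were low pools of CCNB2. In 2-butylnaphthalene pool C was at -1.76 log2 CPM with 1 read, against 1.59 to 2.06 in the other pools. In the 2,4,5-trimethyl isomer of naphthalene pool E was at 2.59 with 63 reads, against 3.08 to 3.12 in the others, a group with one of the smallest SDs of CCNB2.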

How the results depend on the processing

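The F tests of both genes kept their side of the threshold under all alternatives run, with adjusted p values of 1.29e-09 to 1.13e-07 for CCNB1 and 0.157 to 0.463 for CCNB2 when a pool was left out. The number of 21 chemicals with CCNB1 at an adjusted p of at most 0.05 and any fold was 4, became 2 against same-day controls and 0 in separate fits, and was 2 to 4 when a pool was left out. The count with the fold criterion was 0 to 1 for CCNB1 and 0 to 1 for CCNB2, with or without a fold criterion for CCNB2, when a pool was left out. With the pool letter as a replicate block CCNB2 was called in 1 chemical, and with 1 CPM added in 1. The pairs of CCNB1 that passed over the 15 pairs numbered 7, and 6 to 7 without a pool, and those of CCNB2 0, and 0 to 2. Direction turned only in small differences from the control. CCNB1 in 1,3-dimethylnaphthalene was -0.017 with the block and -0.043 to 0.14 without a pool, and in 2-isopropylnaphthalene -0.14 to 0.13. CCNB2 in 2-butylnaphthalene was -0.054 against same-day controls, in 2,3-dimethylnaphthalene -0.35 to 0.81 and in 2,6-diisopropylnaphthalene -1.11 to 0.21 without a pool. The cause of these changes was not tested.

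Pool letters did not pair the samples, since the deviations of same-lettered pools had a mean correlation of 0.0020 and those of different letters -0.00049. With the letter as a block CCNB1 passed at any fold in 5 chemicals, and its F test gave an adjusted p of 2.07e-08. The counts without a fold criterion were chosen after seeing the data. CCNB2 is limited by the spread of its pools, an SD of 1.24 within chemicals at a median of 45 reads, and its control mean rests on 5 pools of 1 to 20 reads. The part of depth in that spread was not tested.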
